A study of Mus musculus with 10 samples.

Results

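Collagen chains are modified, folded and crosslinked by a small set of enzymes and a chaperone. The genes described here are the 10 of this set named P4ha1, P4ha2, P4ha3, P4hb, Plod1, Plod2, Plod3, Serpinh1, Loxl2 and Loxl3. They were taken by symbol from the gene table of a left atrial RNA sequencing study in mice, where all 10 were found among 23337 listed genes. All 10 also passed the filter on low counts that left 13191 genes to test.

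The study compared adult left atria of 6 animals labelled Tbx5 knockout (Tbx5-/-) with those of 4 labelled wild type (Tbx5 +/+), all of mixed C57B6 and 129 background. The Tbx5 protein is a transcription factor of the T-box family that acts in the heart. In the knockouts, exon 3 of Tbx5 was excised by a Cre that tamoxifen activates. R26, the ubiquitous locus it is expressed from, does not limit it to heart muscle cells. Injections into the peritoneum gave 0.167 mg of tamoxifen daily on 3 days, and the atria were collected after 1 further week, at an age given as 8 to 10 weeks in one label and 6 to 8 weeks in another. The treatment text is the same for all 10 samples, controls included, and does not say separately whether the wild-type animals carried Cre or were injected. Every library carries the label of a separate animal, 3 male and 3 female knockouts and 2 male and 2 female controls.

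Newly made collagen chains enter the endoplasmic reticulum, where prolyl 4-hydroxylase hydroxylates proline residues and so makes the triple helix stable at body temperature. That enzyme joins catalytic alpha subunits (P4ha1, P4ha2 or P4ha3) to the protein disulfide isomerase P4hb. Lysyl hydroxylases (Plod1, Plod2, Plod3) hydroxylate lysines that later carry sugars and crosslinks, and the chaperone HSP47, encoded by Serpinh1, holds the folded helix on its way to the Golgi. Outside the cell, lysyl oxidases, among them the lysyl oxidase-like proteins of Loxl2 and Loxl3, oxidise lysines to the aldehydes from which crosslinks form. In the heart these genes are known mainly from fibroblasts and from fibrosis.

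Total counts were 5789632 to 7355782 reads per knockout library and 5701670 to 7697556 per control library. The whole-gene Tbx5 count was higher in the libraries labelled knockout, at 1952 ± 336 normalized counts, than in controls, at 939 ± 125 (SD, n = 6 and n = 4; exact two-sided permutation test, p = 0.00476). Only exon 3 is removed, so this count does not measure the deletion, but its direction does not show the loss that the label names, and every direction below rests on the genotype labels. Markers of the tissue were present in all libraries, with all 4 tested atrial markers (Nppa, Myl7, Myl4 and Sln) lower in the knockouts; Bmp10 was near the limit of counting, with means of 2.54 and 2.55 normalized counts in knockouts and controls. The sex labels of the controls did not match their sex-linked genes. In the knockouts, the libraries labelled female held 4443 to 4802 raw reads of Xist and 0 or 1 read over 4 Y-linked genes, and those labelled male held 4, 4 and 153 reads of Xist and 1265 to 1854 Y-linked reads. In the controls this was turned round, with 5767 and 6201 Xist reads and no Y-linked read in M1 and M2, and 119 and 9 Xist reads and 2383 and 2106 Y-linked reads in F1 and F2. Control F1 and knockout M3 thus had more Xist reads than the other libraries with Y-linked reads. With both left out, a choice made after the values were seen, 8 of the 10 genes were called higher and 1 lower, as with all libraries. Each genotype held libraries of both patterns, so the genotype comparison does not depend on the sex labels. Library names such as M1 are kept only as names.

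Of the 3 alpha subunit genes 1 fell, 1 did not pass the test and 1 rose, as given below, so the sequences around their transcription start sites are shown first. RefSeq windows on GRCm38.p6, running from 250 bases before to 50 after the start, were found for 7 of the 10 genes. Capitals mark the 5-letter core of a hypoxia response element, ACGTG or GCGTG, read on both strands, because oxygen supply is a known regulator of P4ha1 and P4ha2. The windows of P4ha1 (chr10:59323046-59323345, plus strand), P4ha2 (chr11:54100674-54100973, plus strand) and P4ha3 (chr7:100285270-100285569, plus strand) read as follows, 5′ to 3′. The P4ha2 window lies at a RefSeq start inside the gene's annotated span, downstream of its outermost start.
P4ha1: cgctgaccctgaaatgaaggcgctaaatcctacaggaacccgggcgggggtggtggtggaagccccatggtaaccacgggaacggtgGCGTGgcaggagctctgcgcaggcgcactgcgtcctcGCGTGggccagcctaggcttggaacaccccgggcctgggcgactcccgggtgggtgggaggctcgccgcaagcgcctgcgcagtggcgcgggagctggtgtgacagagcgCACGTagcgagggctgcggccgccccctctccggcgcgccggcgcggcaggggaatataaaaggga
P4ha2: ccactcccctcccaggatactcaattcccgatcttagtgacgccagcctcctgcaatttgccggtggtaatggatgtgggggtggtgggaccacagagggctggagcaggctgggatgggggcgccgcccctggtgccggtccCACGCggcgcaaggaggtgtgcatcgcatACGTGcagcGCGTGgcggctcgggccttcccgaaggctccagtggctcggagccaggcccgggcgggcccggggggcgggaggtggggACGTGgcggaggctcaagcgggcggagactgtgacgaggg
P4ha3: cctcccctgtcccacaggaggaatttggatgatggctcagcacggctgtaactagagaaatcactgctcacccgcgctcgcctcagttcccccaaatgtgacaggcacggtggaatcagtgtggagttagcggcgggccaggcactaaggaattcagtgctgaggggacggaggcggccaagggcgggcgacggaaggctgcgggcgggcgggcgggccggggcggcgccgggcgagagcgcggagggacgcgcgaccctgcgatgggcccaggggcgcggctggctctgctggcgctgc
The P4ha1 window held 3 such cores, the P4ha2 window 4 and the P4ha3 window none. One or more of these cores occurred in 6 of the 7 windows found, including those of P4hb, Plod1, Plod3 and Serpinh1, and in 43.8% of all 32851 windows of this length, so the match is common. The T-box motif AGGTGT was found in 1 of the 7 windows, that of P4ha2, and in 13.7% of all windows. These matches describe letters only, and no binding was measured.

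In the libraries labelled knockout, 8 of the 10 genes were higher, 1 was lower (P4ha1) and 1 did not pass the test (P4ha2). The test was edgeR's quasi-likelihood test with Benjamini-Hochberg adjustment over all 13191 genes, at an adjusted p of 0.05. Over all tested genes, 20.8% were called higher and 21.8% lower, and in total 42.6% passed. That split of 2741 higher and 2881 lower genes became 3942 and 2020 with scaling to library size alone, and 1767 and 3782 with offsets for exon length and GC content. The offsets could be fitted only for the 11948 tested genes with a known length and GC content, so that split also rests on fewer genes. The median log2 fold change (knockout over control) of the 10 genes was 0.70, against 0 for all tested genes. In 6 of the 10, all knockout libraries were above all control libraries, which held for 16.3% of all tested genes. The tissue was whole atrium, so fewer cells of a type and less RNA per cell cannot be told apart, nor can more of either. The largest rise among well-counted genes was that of Loxl2, at 4.90-fold, and the lowest rise was that of Plod1, at 1.31-fold.

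**Figure D1:**
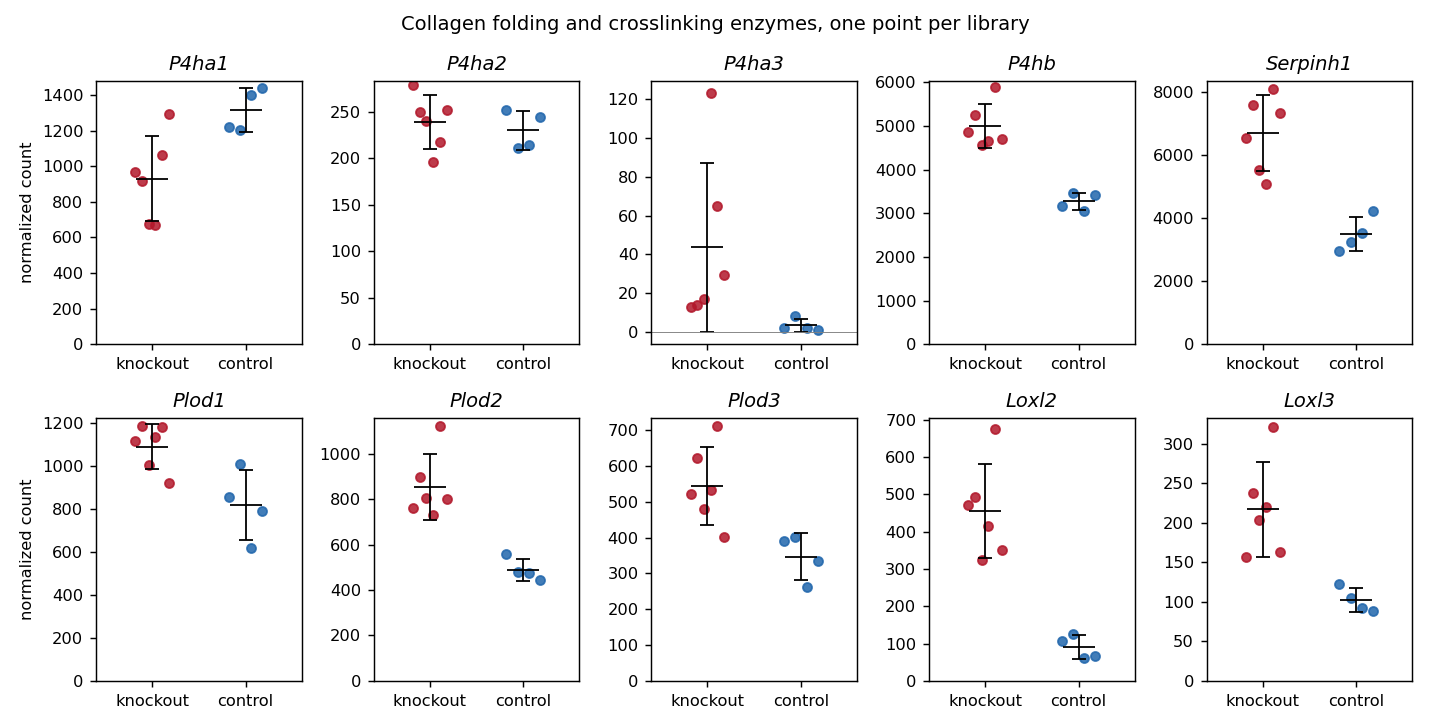
Normalized counts of the 10 genes (y axis, one panel a gene) in 6 knockout and 4 control libraries (x axis), with 1 point per library and the mean ± SD as bars. The groups do not overlap for P4ha3, P4hb, Serpinh1, Plod2, Loxl2 and Loxl3, and P4ha1 is the gene whose knockout mean (931) lies clearly below its control mean (1316).

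**Figure D2:**
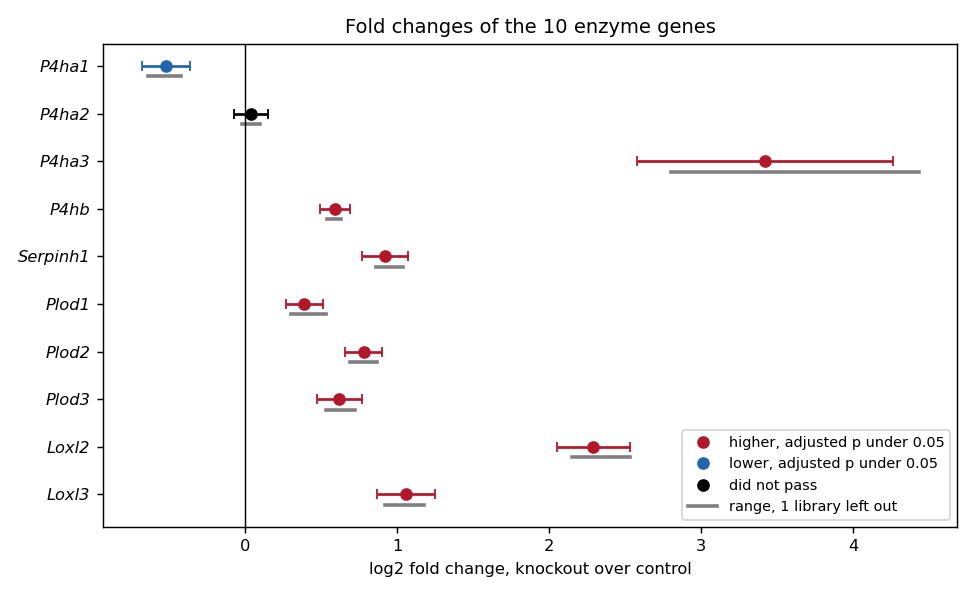
Log2 fold change of knockout over control (x axis) for each gene, with its standard error as bars, and below it, in grey, the range when each of the 10 libraries is left out in turn. P4ha3 has the largest value and the widest error (3.42 ± 0.84), Loxl2 follows (2.29 ± 0.24), and P4ha1 lies left of 0 (-0.52 ± 0.16).

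Among the catalytic subunits of prolyl 4-hydroxylase, the main one fell, the next did not pass and the rarest rose. P4ha1 (chromosome 10, 59323296 to 59373304, plus strand, GRCm38) encodes the alpha subunit that most cell types use. It had 965, 919, 674, 668, 1063 and 1295 normalized counts in knockouts F1, F2, F3, M1, M2 and M3, against 1223, 1201, 1399 and 1440 in controls M1, M2, F1 and F2. The groups overlapped through knockout M3, which lay inside the control range, while the other 5 knockout libraries lay below it. The log2 fold change was -0.52 ± 0.16, or 1.44-fold lower (edgeR, adjusted p = 0.0195). The call did not hold without control F1 (adjusted p = 0.0629) or control F2 (adjusted p = 0.0679), or with scaling to library size alone (log2 -0.39, adjusted p = 0.0567), which moved the median of all genes to 0.14. The 10 most abundant genes of each library took 10.9% to 14.4% of reads in knockouts and 19.3% to 20.9% in controls.

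P4ha2 (chromosome 11, 54100095 to 54131665, plus strand) encodes a second alpha subunit. It had 279, 250, 240, 196, 218 and 252 normalized counts in knockouts F1, F2, F3, M1, M2 and M3, against 252, 211, 214 and 244 in controls M1, M2, F1 and F2. The knockout libraries spread to both sides of the control range. Its log2 fold change was 0.04 ± 0.11 (edgeR, adjusted p = 0.827), an estimate within its own error. The sign of this small value turned under 4 alternatives.

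P4ha3 (chromosome 7, 100285520 to 100319699, plus strand), the alpha subunit gene with the lowest level here, was close to the limit of counting in controls. Raw reads were 15, 15, 18, 119, 71 and 27 in knockouts F1, F2, F3, M1, M2 and M3, against 2, 10, 2 and 1 in controls M1, M2, F1 and F2. The knockout libraries were all above the controls, and among them M1 and M2 were highest, at 123 and 65.1 normalized counts, with the others between 12.8 and 29.5. The mean level was 43.6 ± 43.7 normalized counts in knockouts and 3.55 ± 3.34 in controls (SD, n = 6 and n = 4), a log2 fold change of 3.42 ± 0.84 (edgeR, adjusted p = 0.0047). The size is uncertain. On the log2 scale it was 2.80 without knockout M1 and 4.43 without control M2, and the authors' deposited table gives 1.79 ± 0.46. Among the knockouts, where the sex labels match the sex-linked genes, the 3 males were above the 3 females (means of 72.6 and 14.6 normalized counts), as were 5.19% of all tested genes, with 4.94% below. None of the other 9 genes separated them. The controls, near the limit of counting, did not repeat this order. F1 and F2, with Y-linked reads, had 2 and 1 raw reads, and M1 and M2, without them, 2 and 10.

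Per kilobase of exon, the 3 alpha subunits summed to between 208 and 365 normalized counts in knockouts and between 328 and 390 in controls. P4ha1 made up 69.6% to 86.3% of that sum in knockout libraries and 87.8% to 90.7% in controls. P4ha3 reached 16.9% in the highest knockout library and at most 0.823% in any control. P4ha1 thus stayed the most abundant alpha subunit transcript in every library, on a scale of reads per length.

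The partner subunit rose, while the main catalytic subunit fell in a call that did not hold under every alternative. P4hb (chromosome 11, 120560298 to 120573253, minus strand) encodes a disulfide isomerase that serves other secreted proteins as well as collagen. It had 4870, 5254, 4571, 4654, 5884 and 4701 normalized counts in knockouts F1, F2, F3, M1, M2 and M3, against 3169, 3454, 3041 and 3407 in controls M1, M2, F1 and F2. The groups did not overlap, and the difference between the lowest knockout and the highest control exceeded the whole control range. The log2 fold change was 0.59 ± 0.10, or 1.5-fold (edgeR, adjusted p = 0.000269). With offsets for exon length and GC content, where the median of all genes was -0.16, it was 0.29 (adjusted p = 0.0177).

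Serpinh1 (chromosome 7, 99345376 to 99353239, minus strand), the gene of the collagen chaperone HSP47, was the most abundant of the 10 per length, at 2740 normalized counts per kilobase in knockouts and 1430 in controls. Its levels were 6539, 7585, 5517, 5063, 8076 and 7315 normalized counts in knockouts F1, F2, F3, M1, M2 and M3, against 2937, 3249, 3531 and 4215 in controls M1, M2, F1 and F2. Every knockout library was above every control, with knockout M1 nearest to the controls. The gene rose 1.89-fold, a log2 fold change of 0.92 ± 0.15 (edgeR, adjusted p = 0.000247), and no alternative changed the call. With the length and GC offsets the value was 0.61 (adjusted p = 0.00623).

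All 3 lysyl hydroxylase genes rose, with Plod2 the most in fold. Plod2 (chromosome 9, 92542223 to 92608428, plus strand) encodes the enzyme that acts mainly on the ends of the collagen chain outside the helix, where it sets the type of crosslink. It had 760, 896, 803, 729, 1124 and 800 normalized counts in knockouts F1, F2, F3, M1, M2 and M3, against 558, 478, 475 and 444 in controls M1, M2, F1 and F2. The groups were clear of each other and the log2 fold change was 0.78 ± 0.12, or 1.72-fold (edgeR, adjusted p = 0.000185). Its exons share 346 bp with the predicted gene Gm38391 on the opposite strand, whose reads cannot be told apart from its own there.

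Plod1 (chromosome 4, 147909753 to 147936767, minus strand), whose human gene is mutated in a kyphoscoliotic form of Ehlers-Danlos syndrome, acts on lysines within the helix. It had 1116, 1185, 1005, 1132, 1180 and 922 normalized counts in knockouts F1, F2, F3, M1, M2 and M3, against 855, 1009, 616 and 788 in controls M1, M2, F1 and F2. The groups overlapped, with knockouts F3 and M3 below control M2. The log2 fold change was 0.39 ± 0.12 (edgeR, adjusted p = 0.0190), and it did not pass without control F1 (adjusted p = 0.0571) or with offsets for exon length and GC content (0.22, adjusted p = 0.11). Those offsets moved the median of all genes to -0.16.

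Plod3 (chromosome 5, 136987019 to 136996648, plus strand) encodes an enzyme that can also attach sugars to hydroxylysine. Its levels were 522, 621, 479, 533, 712 and 401 normalized counts in knockouts F1, F2, F3, M1, M2 and M3, against 391, 402, 261 and 334 in controls M1, M2, F1 and F2. Knockout M3 lay level with the highest control and the other 5 knockouts lay above it. The log2 fold change was 0.62 ± 0.15 (edgeR, adjusted p = 0.00504), and 0.38 with the length and GC offsets (adjusted p = 0.0325). Its exons share 529 bp with those of Znhit1 on the opposite strand, and without a known strand setting reads from that stretch cannot be assigned to either gene with certainty. In sum the 3 lysyl hydroxylases reached 373 to 541 normalized counts per kilobase in knockouts and 237 to 327 in controls, with Plod1, Plod2 and Plod3 at median shares of 36.7%, 35.8% and 27.7% in knockouts and 41.3%, 31.4% and 27.2% in controls.

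Both lysyl oxidase-like genes rose, Loxl2 more than Loxl3. Loxl2 (chromosome 14, 69609068 to 69695834, plus strand) encodes a secreted enzyme that crosslinks collagen, type IV collagen of basement membranes included. It had 472, 492, 323, 415, 674 and 351 normalized counts in knockouts F1, F2, F3, M1, M2 and M3, against 108, 126, 60.1 and 68.0 in controls M1, M2, F1 and F2. Even the lowest knockout library, F3, was far above the highest control. The log2 fold change was 2.29 ± 0.24, or 4.90-fold (edgeR, adjusted p = 8.75e-06), and stayed between 2.15 and 2.53 when any 1 library was left out. A stretch of 301 bp of its exons overlaps the antisense gene Gm27177, so reads there cannot be told apart.

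Loxl3 (chromosome 6, 83034173 to 83052562, plus strand) encodes a related enzyme known from skeletal and palate development in mice. It had 157, 238, 203, 220, 321 and 163 normalized counts in knockouts F1, F2, F3, M1, M2 and M3, against 122, 105, 92.5 and 88.9 in controls M1, M2, F1 and F2. No knockout library reached down to the control range. The log2 fold change was 1.06 ± 0.19, or 2.09-fold (edgeR, adjusted p = 0.000477). Its exons share 535 bp with Htra2 on the opposite strand, so part of its reads may belong to that gene.

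To ask whether genes of one family changed unequally, ratios of 2 genes were formed within each library, which removes the scaling between libraries. Of 8 ratios, 2 differed between genotypes after adjustment over the 8 (exact two-sided permutation tests over 210 label placements, where 0.00476 is the smallest p). The ratio of Loxl2 to Loxl3 reads was 1.59 to 2.99 in knockouts (median 2.08) and 0.652 to 1.20 in controls (median 0.823), a log2 difference of 1.29 (exact p = 0.00476, adjusted p = 0.019). In controls M1, F1 and F2 Loxl3 had the more reads, and in every knockout library Loxl2 did. The ratio of P4ha3 to P4ha1 was higher by 3.74 on the log2 scale, with no overlap (exact p = 0.00476, adjusted p = 0.019). Its size rests on few P4ha3 reads in controls. It was 3.52 with 1 added to each count and 4.04 with nothing added. Leaving out 1 library gave 3.25 to 4.26 for this ratio and 1.17 to 1.46 for Loxl2 to Loxl3. The adjusted p was then at most 0.0476 for each (exact permutation tests).

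**Figure D3:**
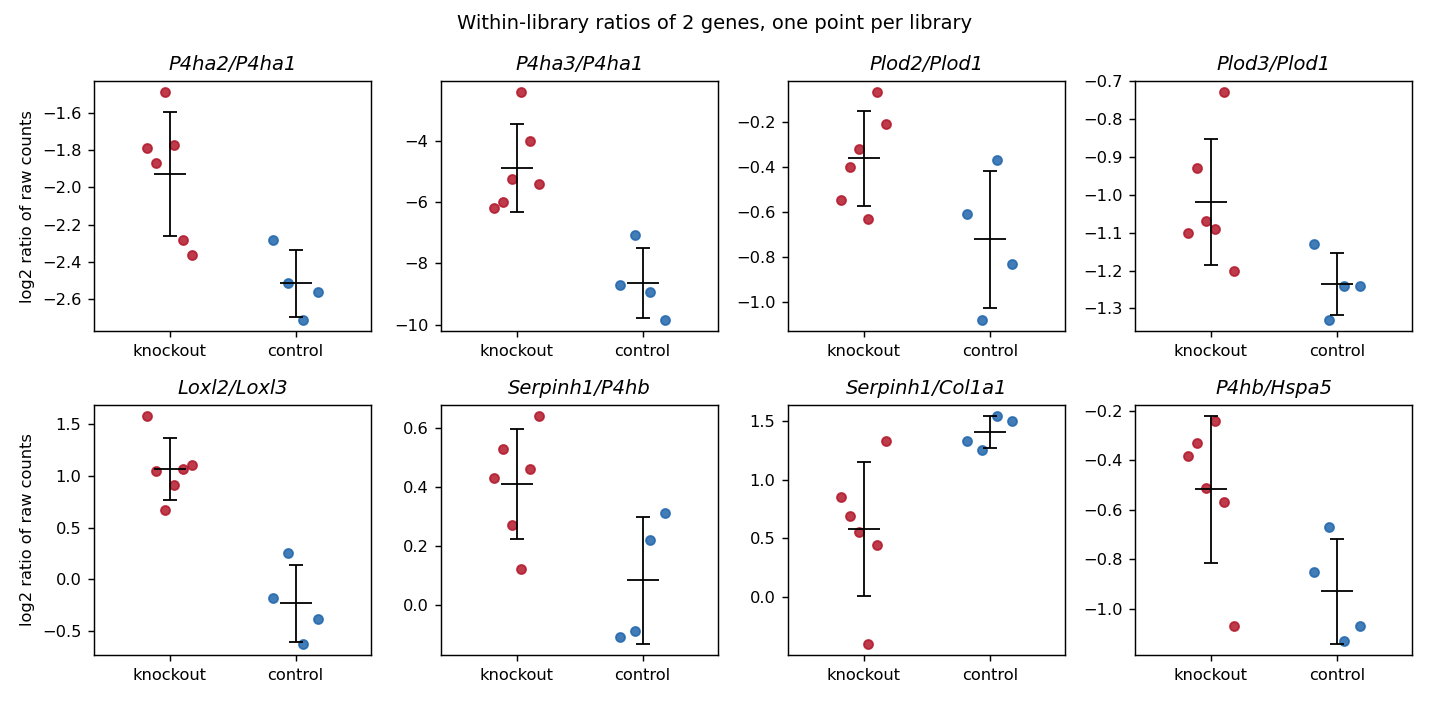
Log2 ratio of the raw counts of 2 genes within a library (y axis, one panel a ratio) in 6 knockout and 4 control libraries, with mean ± SD as bars. Loxl2/Loxl3 and P4ha3/P4ha1 separate the groups (differences of 1.29 and 3.74), and Serpinh1/Col1a1 is lower in 5 of 6 knockout libraries than in any control.

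The other 6 ratios did not pass after adjustment. P4ha2 to P4ha1 had a log2 difference of 0.59 (exact p = 0.019, adjusted p = 0.0508), and Plod3 to Plod1 one of 0.21 (exact p = 0.0381, adjusted p = 0.0571). The ratio of Plod2 to Plod1 differed by 0.36 (exact p = 0.0571) and that of Serpinh1 to P4hb by 0.33 (exact p = 0.0429), each with an adjusted p of 0.0571. Serpinh1 reads per read of Col1a1, a chain gene of type I collagen, were 0.757 to 2.52 in knockouts and 2.38 to 2.92 in controls, a log2 difference of -0.83 (exact p = 0.0286, adjusted p = 0.0571). P4hb per read of Hspa5, the main general chaperone of the endoplasmic reticulum, had a log2 difference of 0.41 (exact p = 0.0524, adjusted p = 0.0571). Without knockout M3, the ratios P4ha2 to P4ha1, Plod3 to Plod1, Serpinh1 to Col1a1 and P4hb to Hspa5 passed. Their log2 differences were then 0.67, 0.25, -0.98 and 0.53, with adjusted p of 0.0317, 0.0254, 0.0159 and 0.0159. None of these ratios passed when any other library was left out alone. Their highest adjusted p was then 0.111, 0.111, 0.111 and 0.131 in the same order (exact permutation tests).

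Genes that act beside these enzymes are given next. Their lists were written with earlier results of these data known. Counts called in these lists stand beside 20.8% higher and 21.8% lower over all tested genes. Whether a list departs from these shares was not tested. Among partners in prolyl 3-hydroxylation, folding and glycosylation of collagen, 9 of 13 rose, none fell, and the median log2 fold change was 0.50. Leprel2, the prolyl 3-hydroxylase gene now named P3h3, had 385 ± 62.8 normalized counts in knockouts and 189 ± 11.6 in controls (log2 fold change 1.00 ± 0.12, edgeR adjusted p = 2.79e-05). Glt25d1, the collagen galactosyltransferase gene now named Colgalt1, rose by 0.74, Ppib, the cyclophilin B gene, by 0.76, and Fkbp10, a collagen prolyl isomerase gene whose product FKBP65 is known to assist Plod2, by 0.99 on the same scale.

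In the steps after folding, export and removal of the propeptides, 5 of 13 tested genes rose and 2 fell (median 0.37). Adamts2, the main N-propeptidase of procollagen, had 1448 ± 347 normalized counts in knockouts and 383 ± 30.9 in controls (log2 fold change 1.89 ± 0.17, edgeR adjusted p = 2.27e-06). Bmp1, the C-propeptidase, and its enhancer Pcolce rose by 0.64 and 0.81 on the log2 scale. Mia3, which encodes TANGO1, the receptor that loads procollagen for export, fell by 0.65 (608 ± 109 in knockouts and 937 ± 69.1 in controls, edgeR adjusted p = 0.00101). Both other lysyl oxidase genes listed, Loxl1 and Loxl4, rose, with log2 fold changes of 1.15 and 0.76.

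The substrates of these enzymes rose as well. All 16 collagen chain genes listed were higher, with a median log2 fold change of 1.44. Col8a1, a short-chain network collagen, and Col12a1, a fibril-associated one, had log2 fold changes of 2.70 ± 0.21 and 3.30 ± 0.29, and Col5a2 and Col1a2, fibrillar chains, 2.52 ± 0.20 and 1.68 ± 0.17 (edgeR adjusted p = 9.83e-07, 2.08e-06, 1.15e-06 and 5.69e-06). Col1a1, the chain set against Serpinh1 above, had 4605 ± 1468 normalized counts in knockouts and 1309 ± 147 in controls. Whether the enzymes and the chains changed unequally as lists was not tested.

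**Figure D4:**
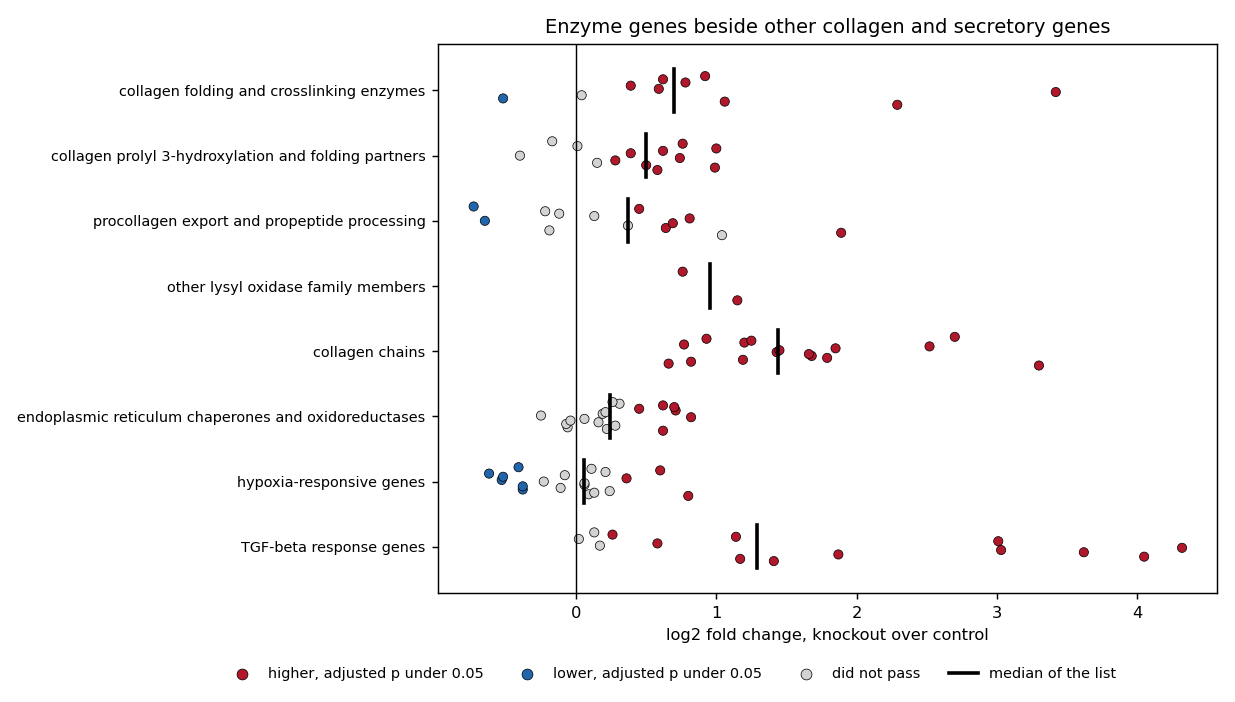
Log2 fold change of knockout over control (x axis) for each tested gene of 8 lists (y axis), red where higher and blue where lower at an adjusted p under 0.05, grey otherwise, with the median of the list as a black bar. The median is 0.70 for the enzymes described here, 1.44 for collagen chains, 0.24 for general chaperones and 0.06 for hypoxia-responsive genes.

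Among general folding genes of the endoplasmic reticulum, 6 of 18 rose, none fell, and the median was 0.24. Pdia4 and Pdia6, disulfide isomerase relatives of P4hb, had log2 fold changes of 0.70 and 0.62, and Manf and the stress transcription factor gene Atf4 0.71 and 0.62. With offsets for length and GC content Atf4 and Manf did not pass (edgeR adjusted p = 0.0998 and 0.0593), and Pdia4 and Pdia6 were at 0.44 and 0.39. The median of all genes was -0.16 with these offsets. Hspa5 had 7255 ± 1671 normalized counts in knockouts and 6256 ± 780 in controls and did not pass (edgeR adjusted p = 0.358). Of 19 tested hypoxia-responsive genes, 3 rose and 6 fell, beside 20.8% and 21.8% of all tested genes, with a median of 0.06. Eno1 was listed at 0 in every library. A count of 0 under this symbol does not show that its transcript was absent. Pgk1, a glycolytic kinase, rose by 0.60, while Pdk1, the kinase that restrains pyruvate dehydrogenase, the histone demethylase Kdm3a and the MYC antagonist Mxi1 fell by 0.62, 0.53 and 0.52 on the log2 scale. Mxi1 did not pass without control M1 (edgeR adjusted p = 0.0522), and Pgk1 was at 0.30 with the offsets.

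TGF-beta is a growth factor that induces collagen enzymes in fibroblasts. In a list of the genes that encode it and genes known to respond to it, 11 of 14 rose, none fell, and the median was 1.29. Of the ligand genes, Tgfb2 and Tgfb3 rose (log2 fold changes of 1.14 and 0.26, edgeR adjusted p = 0.000179 and 0.0285). Tgfb1 did not pass (0.02, edgeR adjusted p = 0.951). Postn, the gene of the matrix protein periostin, had 6548 ± 2804 normalized counts in knockouts and 784 ± 328 in controls, a log2 fold change of 3.03 (edgeR adjusted p = 1.15e-05). Ltbp2 and Tagln had log2 fold changes of 3.62 and 3.01 (edgeR adjusted p = 1.03e-06 and 3.06e-06). Tagln and Acta2 also stand in the smooth muscle list below.

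Fibroblast markers did not move together: 5 of 9 rose and 2 fell (Pdgfra and Gsn), and their summed level was 39524 to 51813 normalized counts in knockouts and 41758 to 45564 in controls, so the groups overlapped. Col1a1 is itself in that list, and Gsn and Dcn make up most of the sum. All 8 macrophage markers rose, with sums of 7806 to 11647 in knockouts and 3617 to 4927 in controls. Of 7 markers of smooth muscle and pericytes, 5 rose (sums of 3904 to 4791 in knockouts and 2608 to 3085 in controls), and of 6 endothelial markers 3 rose and 1 fell (sums of 7781 to 8430 in knockouts and 6861 to 7918 in controls). Of 7 general cardiomyocyte markers, 3 rose and 2 fell (258564 to 352002 in knockouts and 316148 to 362294 in controls). The atrial marker sum, of which Nppa had the largest part, was 84619 to 198469 in knockouts and 320505 to 373587 in controls, with no overlap. Of the interstitial and valve genes, Sox9 rose, Comp did not pass, and Acan and Chad had too few reads to test. Summed over those 4 genes, the level was 257 to 508 in knockouts and 306 to 451 in controls, most of it from Comp. No listed marker was at 0 in all libraries. Over all tested genes, 20.8% were called higher and 21.8% lower. The part of these cell types in the changes of the 10 genes was not tested.

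**Figure D5:**
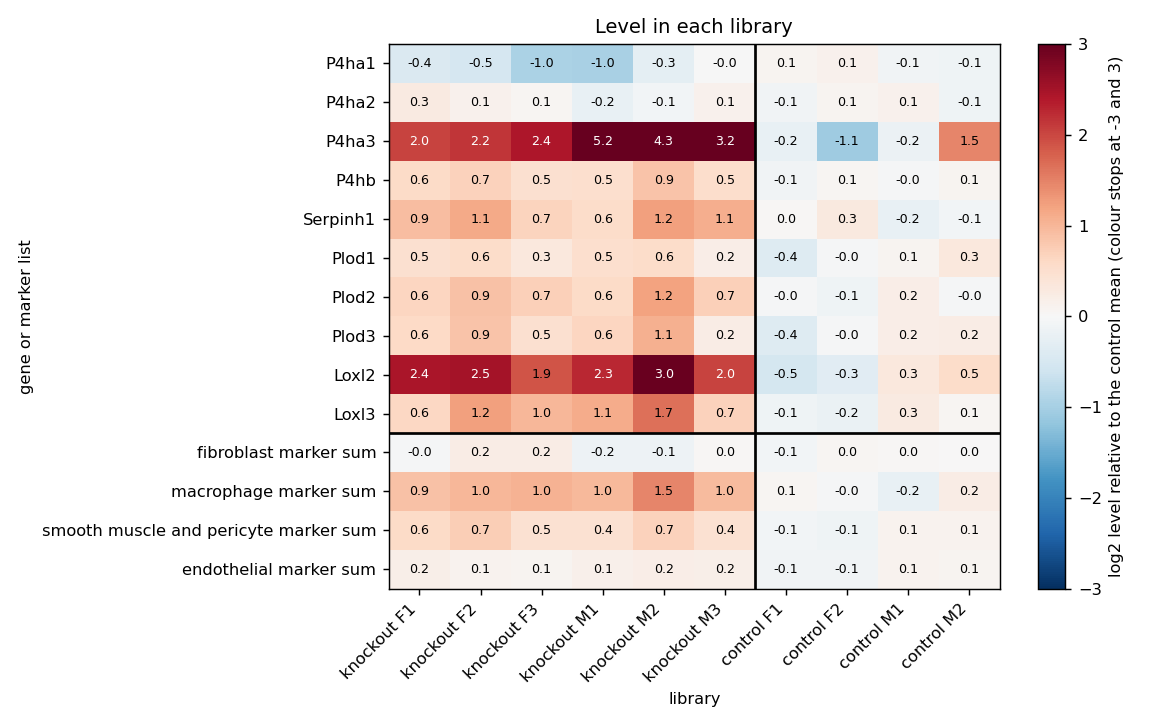
Log2 level of each gene, and of the summed markers of 4 cell types, relative to the mean of the 4 controls (colour and printed value) in each library (x axis). Knockout M2 has the highest value of all libraries for P4hb, Serpinh1, Plod2, Plod3, Loxl2 and Loxl3 and for the macrophage sum, while its fibroblast sum is -0.15 on this scale.

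Within the knockouts the 10 genes did not rank the libraries alike. Knockout M2 was highest for 6 of the 10 and lowest for none, and knockout M1 was lowest for 4 and highest for 1, P4ha3. The macrophage marker sum was also highest in knockout M2, at 11647. Without knockout M2 the same counts of 8 higher and 1 lower were found.

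A test of whether the knockout effect differed by labelled sex called 0 of the 10 genes, and 27 of 13191 (0.205%) overall (edgeR, interaction of sex and genotype). The adjusted p of the 10 lay between 0.711 and 0.995, and none had an unadjusted p under 0.05. Since the sex-linked genes of all 4 controls went against their labels, this test does not compare males with females and nothing is read from it.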

How the data were processed

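RNA of mouse left atria, depleted of globin RNA, was read from one end (51 bp) per the labels' protocols, which name both an mRNA kit and ribosomal depletion. Per the submitters' processing notes, reads were handled on mm10 with TopHat2 2.0.11, featureCounts, FastQC and DESeq2. For annotation and strand setting, the sources used here give nothing. The authors deposited raw counts per gene, and a normalized signal, per the file headers; its values were checked to be the counts over a library's size factor. The deposited table also holds the authors' log2 fold change with its standard error, the Wald statistic (a score), the p-value with its adjusted form, and the linear fold.

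Levels in the text are this deposited signal, given as normalized counts with mean ± SD. Raw counts were tested with edgeR 4.0.16 (R 4.3.3): filterByExpr, TMM, quasi-likelihood F-test without covariates, adjusted p of 0.05 over 13191 genes. The standard error is the absolute log2 fold change divided by the square root of F. Ratios used raw counts plus 0.5. Exon lengths and positions came from GENCODE M21 (GRCm38), where 20918 of 23337 symbols matched, and promoters from RefSeq. Newer symbols in the lists were matched to the older ones of the table through RefSeq synonyms. The test scripts were checked on seeded counts with known changes. Of planted genotype changes of 1.5-, 2- and 4-fold, 37%, 78.6% and 98.4% were recovered. For the genotype by sex difference these shares were 3.7%, 21.4% and 84.1%. False calls were 10 of 146 for genotype and 11 of 79 for the genotype by sex difference. Changes were planted in 81, 56 and 63 of 13191 genes, while 42.6% of genes passed in the data. The shares recovered need therefore not hold for the real test. Since planted changes were missed, a gene that did not pass is not shown to be unchanged.

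The 10 genes and all lists were chosen with earlier results of these data known. All 10 genes, the genes of the ratios, Tbx5, and in each list other than the cell type markers at most 4 genes, those lowest in adjusted p, are named. Marker lists are given by counts and sums. Single markers and, beyond that choice, the TGF-beta ligand genes were named after their values were seen. A gene that this rule names is not reported here. Log2 CPM correlated at 0.964 to 0.986 within and 0.888 to 0.949 between genotypes, and no replicates agreed within sampling noise (lowest chi-square per degree of freedom 4.22). The number of animals limits the p-values, and no batch or date is given. Alternatives were RLE, upper-quartile and library-size scaling, DESeq2 1.42.0, limma-voom (limma 3.58.1), other filters and thresholds, covariates, length and GC offsets, and libraries left out.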

Additional observations from a re-analysis of the deposited data

How the results depend on the processing

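Counts of the 10 genes were stable upward: 7 to 8 were called higher when each library was left out in turn, 7 with offsets for length and GC content, at an adjusted p of 0.01 or with at least 50 counts in 4 libraries, 6 from libraries labelled male alone, and 8 under the other alternatives run. The count of lower genes, P4ha1 alone, was 0 with library size only, from libraries labelled male, at an adjusted p of 0.01, and without control F1 or F2 (0 to 1 on leaving out 1 library). P4ha2 turned sign with the offsets (-0.15), from libraries labelled male (-0.06), without knockout F1 (-0.02; range -0.02 to 0.10 on leaving out 1 library) and without control F1 and knockout M3 (-0.01), never past the test. From libraries labelled male, P4ha1, Plod1 and Plod3 did not pass (adjusted p = 0.502, 0.459 and 0.207), nor did 10 of the named list genes. From libraries labelled female, Manf (0.31, adjusted p = 0.0535) and Mxi1 (-0.33, adjusted p = 0.0999) did not pass. By their sex-linked genes, these subsets set knockouts against controls of the opposite pattern, so sex and genotype cannot be told apart in them. The sex covariate used the same labels. Genes called higher numbered 2741, but 1767 with the offsets (of 11948 genes), 1807 at an adjusted p of 0.01 and 1074 from libraries labelled male, where 987 were lower in place of 2881. The offsets also moved the median of all genes to -0.16, so calls that changed with them cannot be read as length and GC effects alone. With library size only the split was 3942 higher and 2020 lower. Interaction calls by labelled sex numbered 13 with the stricter filter, against 27.

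Labels M1, M2, F1 and F2 recur in both genotypes, and same-labelled libraries deviated with correlations of -0.126 to 0.172. The closest control carried the same label for knockout M2 only. These values cannot show whether libraries with a shared label were handled together. By sex-linked genes, each such pair joined libraries of opposite pattern. With the replicate block 8 of the 10 were again higher and 1 lower, and 2599 and 2812 genes in all. Over those 4 pairs the ratios P4ha3/P4ha1 (3.97) and Loxl2/Loxl3 (1.38) could not pass, since 0.125 is the smallest p. Leaving out 1 library gave 0.50 to 0.67 for P4ha2/P4ha1, 0.16 to 0.25 for Plod3/Plod1, -0.98 to -0.63 for Serpinh1/Col1a1 and 0.35 to 0.53 for P4hb/Hspa5. Without control F1 and knockout M3, the ratios Serpinh1/Col1a1 and P4hb/Hspa5 passed, at -0.93 and 0.46. The cause of these shifts was not tested. P4ha3, with 1 to 10 reads per control library, is limited by depth and did not enter the stricter filter.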

Other observations

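Within the 6 knockout libraries P4ha3 had 123, 65.1 and 29.5 normalized counts in males M1, M2 and M3, against 12.8, 14.0 and 17.1 in females F1, F2 and F3. The comparison was chosen after its values were seen. The log2 difference of males over females was 2.06 (exact two-sided permutation test, p = 0.1, the smallest that 3 against 3 can give). Controls with Y-linked reads (F1 and F2) were not above those without (M1 and M2). Atrial marker sums also separated these knockouts, at 95327, 84619 and 157451 in M1, M2 and M3. They were 166641, 178432 and 198469 in F1, F2 and F3. The sums of all the other marker lists overlapped between male and female knockouts. Nppa had the largest part of the atrial sum, with a knockout mean of 104127 normalized counts, against 31687 for Myl4, the next. The cause of the split was not tested.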
